A study of Mus musculus with 18 samples.

Results

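D-type cyclins, their kinases CDK4 and CDK6, 4 CDK inhibitor genes and the retinoblastoma gene were followed by RNA sequencing of CD8+ T cells from mice. The set holds 10 of the 55536 genes and 63 of the 141862 transcripts in the deposited count tables: Ccnd1, Ccnd2, Ccnd3, Cdk4, Cdk6, Cdkn1b, Cdkn2a, Cdkn2c, Cdkn2d and Rb1. Members were found by matching Ensembl identifiers to these symbols in GENCODE M21, and every one of them is accounted for below. The libraries fall into 2 labelled Tra2b knockout, 8 labelled control and 8 labelled naive. Tra2b encodes a splicing regulator. All 18 libraries share the OT-I genotype, a T cell receptor transgene specific for the ovalbumin peptide SIINFEKL, and came from spleen and lymph nodes. Knockout cells and the controls, which the series describes as scrambled, were taken on day 4 after stimulation with SIINFEKL and anti-OX40 and anti-41BB, which bind costimulatory receptors. Naive cells were taken on day 0. Ages, how Tra2b was deleted, and whether animals were pooled are not given in the sources used here. Control and naive cells therefore differ in stimulation, in time and in the scrambled treatment, and the parts of these in a difference cannot be told apart.

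D cyclins bind CDK4 or CDK6 and bring antigen and growth signals to the cell cycle engine. The active kinases phosphorylate the retinoblastoma protein RB1, which then lets go of E2F transcription factors, and E2F factors switch on genes of DNA replication. The INK4 inhibitors, p16INK4a from Cdkn2a, p18INK4c from Cdkn2c and p19INK4d from Cdkn2d, bind CDK4 and CDK6 and keep cyclin D away, whereas p27Kip1 from Cdkn1b binds the assembled cyclin-kinase complexes. Resting T cells are known for abundant p27Kip1, and lymphocytes use cyclin D2 and cyclin D3 more than cyclin D1.

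Total counts per library ran from 68249844 to 93972513, and 79197461 and 93495846 of these counts belonged to the knockout libraries. Tra2b itself stood at 361 and 370 CPM (counts scaled to library size, with TMM factors over all libraries) in knockout libraries, at 338 to 526 CPM in controls and at 248 to 352 CPM in naive libraries. Control 2, at 338 CPM, lay below both knockout libraries, so the gene level does not separate the labels. Mitochondrial genes took 1.80% of counts in knockout 1 and 1.04% in knockout 2, against 0.813 to 1.03% in controls. The summed level of 5 CD8 T cell genes was 2656 to 3078 CPM in knockout libraries, 2376 to 2968 CPM in controls and 4337 to 5243 CPM in naive libraries. B cell genes (8 listed) summed to 29.1 to 32.8 CPM in knockout libraries, 11.8 to 26.6 CPM in controls and 70.8 to 141 CPM in naive libraries. Dendritic cell genes (6 listed) summed to 39.6 to 51.1 CPM, 19.1 to 37.1 CPM and 69.5 to 159 CPM in the knockout, control and naive libraries. The NK cell list (5 genes) summed to 63.8 to 64.5 CPM in knockout libraries, 15.5 to 71.3 CPM in controls and 124 to 184 CPM in naive libraries, and the list of monocytes, macrophages and neutrophils (8 genes) to 28.1 to 55.7, 4.86 to 29.8 and 15.3 to 97.6 CPM. Erythroid and platelet genes (5 listed) reached 7.98 and 76.4 CPM in the knockout libraries, against 0.282 to 11.1 CPM in controls and 1.52 to 23.6 CPM in naive libraries. The plasmacytoid dendritic gene Siglech and the neutrophil gene Elane were at 0 in all knockout and control libraries, as were Ebf1 of B cells in knockout libraries and Klra8 of NK cells in controls. The CD4 and regulatory T cell list (3 genes) summed to 2.45 to 2.46 CPM in knockout libraries, below all other libraries. It summed to 3.48 to 12.7 CPM in controls and 3.23 to 5.44 CPM in naive libraries. The part of these cells in the differences between groups was not tested.

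Measured per transcript length, cyclin D3 and CDK4 were the main cyclin and kinase of all 3 groups, and the summed D cyclins overlapped between groups while their makeup differed between control and naive libraries. Ccnd3 averaged 572 ± 27.1 TPM (counts scaled by transcript length and then by library, computed here from annotated lengths) in knockout, 554 ± 24.4 TPM in control and 421 ± 32.6 TPM in naive libraries (SD, n = 2, 8 and 8). Ccnd2 averaged 54.0 ± 2.27, 60.6 ± 6.36 and 176 ± 32.1 TPM in knockout, control and naive libraries. Without scaling by length, Ccnd2 averaged 589 ± 111 CPM and Ccnd3 445 ± 40.7 CPM in naive libraries. The order of the 2 cyclins there depends on the scaling, and the sums below were taken with it only. Summed over Ccnd1, Ccnd2 and Ccnd3 the level was 626 ± 24.8 TPM in knockout, 615 ± 28.5 TPM in control and 599 ± 37.1 TPM in naive libraries, and the ranges of the control group, 574 to 672 TPM, and of the naive group, 549 to 652 TPM, overlapped. Of this sum Ccnd2 held 8.65 ± 0.706% in knockout, 9.85 ± 0.783% in control and 29.4 ± 4.55% in naive libraries. Cyclin D2 thus made up at most 11.2% of the D cyclin transcripts in a control library and at least 20.1% in a naive one. Among the kinases, Cdk4 averaged 396 ± 7.91, 452 ± 19.3 and 302 ± 20.4 TPM in knockout, control and naive libraries, and Cdk6 14.99 ± 4.23, 15.3 ± 1.76 and 7.61 ± 0.943 TPM. Cdk6 transcripts were 3.65 ± 1.06% of the CDK4 and CDK6 sum in knockout, 3.27 ± 0.319% in control and 2.45 ± 0.199% in naive libraries. The order after Ccnd3 and Cdk4 in control libraries was Cdkn2d at 189, Ccnd2 at 60.6, Cdkn2c at 24.7, Cdk6 at 15.3, Cdkn1b at 4.23, Rb1 at 3.19, Cdkn2a at 0.392 and Ccnd1 at 0.162 TPM. In naive libraries the order was Ccnd3 at 421, Cdk4 at 302, Cdkn2d at 206, Ccnd2 at 176, Cdkn2c at 20.9, Cdkn1b at 8.08, Cdk6 at 7.61, Rb1 at 2.68, Ccnd1 at 1.55 and Cdkn2a at 0.139 TPM. In naive libraries the neighbours Cdkn2d and Ccnd2 lay within 1 SD of each other, as did Cdkn1b and Cdk6, and so did Cdkn2a and Ccnd1 in control libraries, so those places in the order are not resolved.

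**Figure D1:**
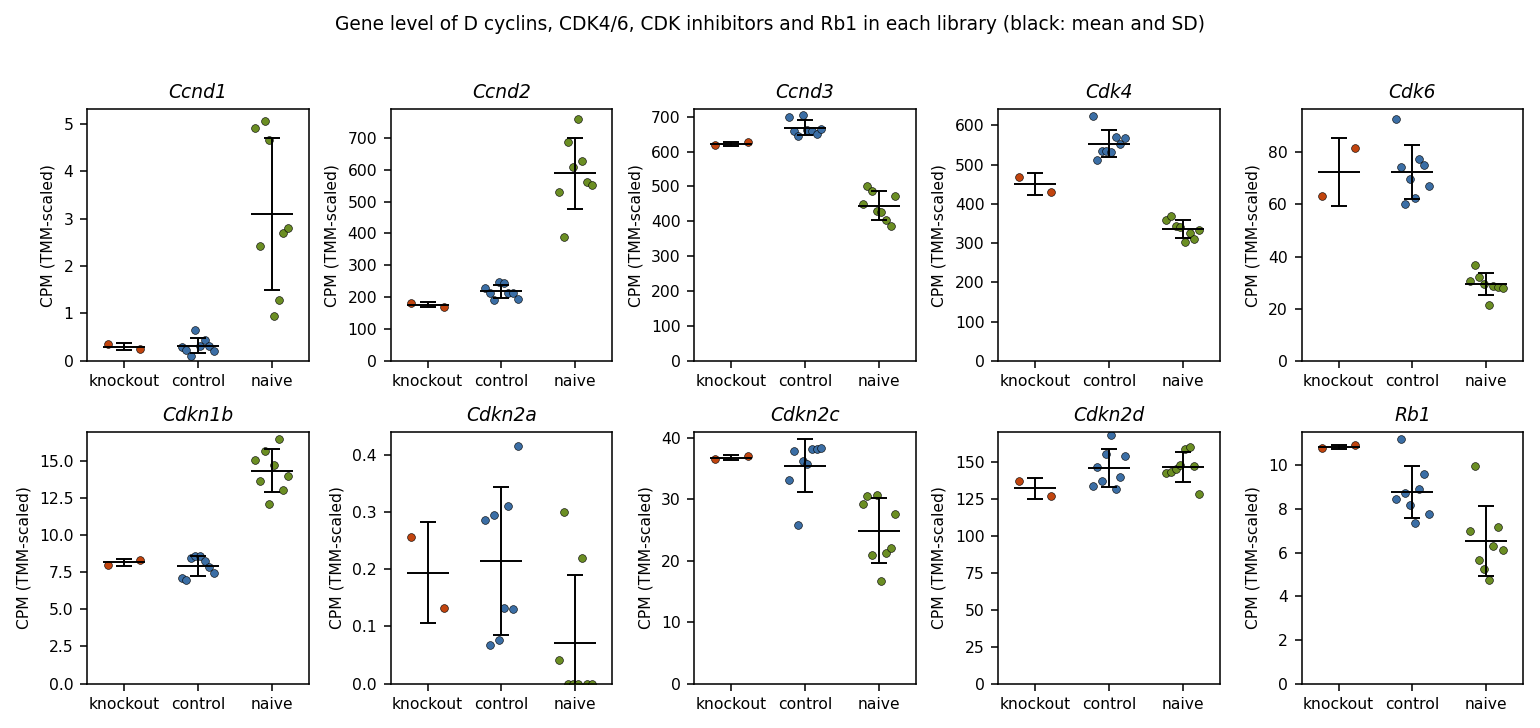
Gene level of the 10 members in each library, in TMM-scaled CPM on axes that start at 0; points are libraries of the knockout, control and naive groups and black marks give the mean and SD. Ccnd2 and Cdkn1b sit high in naive libraries, Ccnd3, Cdk4 and Cdk6 sit high in knockout and control libraries, and Cdkn2d overlaps in all 3 groups.

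Between control and naive libraries, 8 of the 9 members that could be tested passed edgeR's quasi-likelihood test at 0.05, Benjamini-Hochberg adjusted over all genes, 5 of them higher in control libraries and 3 lower. Of all 17078 genes tested 71.5% passed (32.5% higher and 39% lower), so most genes differed in this comparison and the members' count is read against that background. The median log2 fold change of the members was 0.43, against -0.09 over all genes. Between knockout and control libraries 1 of 10 members passed, Cdk4, which was lower, where 14.9% of 18651 genes passed (7.62% higher and 7.24% lower). The members' median there was -0.09, against -0.01 over all genes. Knockout against naive libraries gave 5 members higher and 3 lower of 10, where 44.7% of 19776 genes passed (21.1% higher and 23.6% lower). Each comparison shares a group of libraries with each of the others, so their values are set side by side below and are not separate evidence. Whether the libraries within a group came from separate animals is not labelled, so p-values measure the spread between these libraries only, which may be technical.

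**Figure D2:**
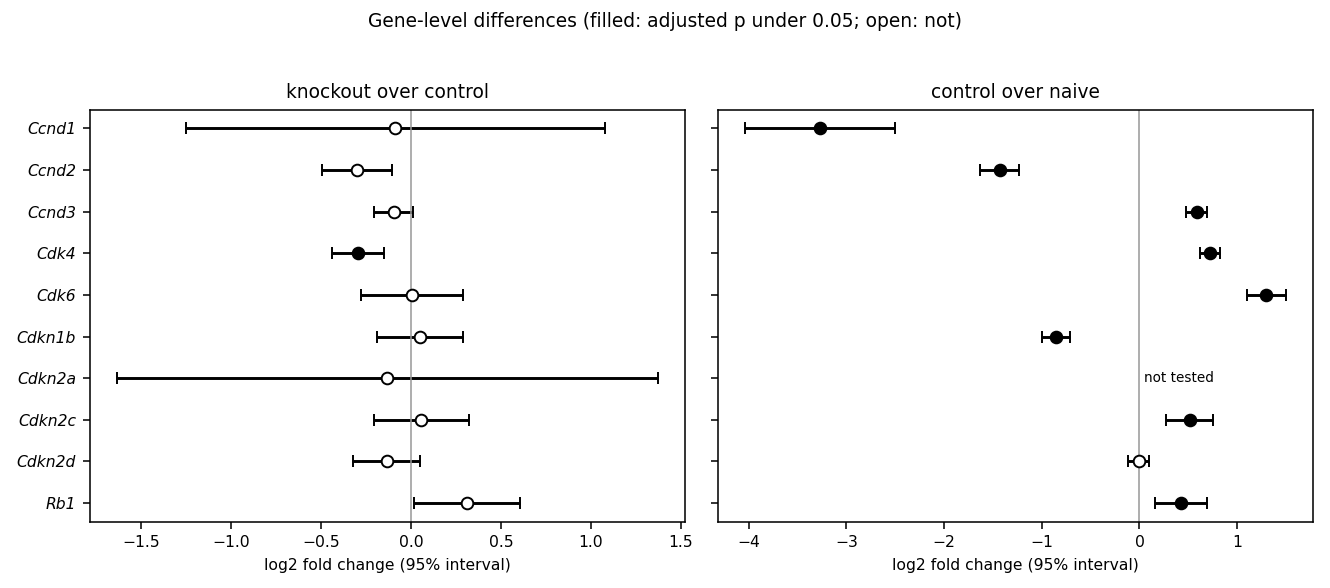
Log2 fold change of each member with its 95% interval, knockout over control on the left and control over naive on the right; filled points passed an adjusted p of 0.05 in edgeR and open points did not. On the left only Cdk4 is filled, at -0.29, and on the right Cdkn2d is the single open point, at -0.01, with Cdkn2a not tested. Intervals are normal ones from the SE and narrower than edgeR's test implies.

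Cyclin D1, encoded by Ccnd1 on chromosome 7, was barely detected after stimulation and low before it. It stood at 0.347 and 0.253 CPM in knockout libraries, against 0.0984, 0.310 and 0.646 CPM for the lowest, median and highest control and 0.939, 2.75 and 5.06 CPM for naive libraries. Every control library lay below every naive library, and the knockout libraries lay inside the control range. These levels rest on 23 and 27 counts in knockout libraries, 8 to 51 in controls and 71 to 443 in naive libraries. Control over naive the log2 fold change was -3.27 (SE 0.39), with an edgeR adjusted p of 6.43e-07. In bulk RNA, fewer cells that express a gene and less RNA per cell cannot be told apart. The summed levels of B cell, dendritic cell and NK cell genes given above were higher in naive libraries too, and their part in this difference was not tested. Exons of Ccnd1 share 1100 bases with the gene LTO1 on the opposite strand, which stood at 19.6, 17.7 and 26.3 CPM in knockout, control and naive libraries. The kit is not stated to keep strand, so reads there cannot be told apart. Knockout over control the value was -0.09 with a 95% interval from -1.25 to 1.08 (edgeR adjusted p = 0.946), so a difference was not detectable at this depth.

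Cyclin D2, encoded by Ccnd2 on chromosome 6, was lower in stimulated cells. Knockout libraries held 183 and 170 CPM, against 192, 214 and 248 CPM for the lowest, median and highest control and 389, 585 and 760 CPM for naive libraries. All controls lay below all naive libraries, and both knockout libraries lay below all controls. Control over naive Ccnd2 was 2.698-fold lower (log2 fold change -1.43, SE 0.10, edgeR adjusted p = 8.62e-10). Naive 2 gave the lowest naive value, 389 CPM, and without it the log2 fold change was -1.498. Knockout over control the log2 fold change was -0.30 (SE 0.10, 95% interval -0.49 to -0.10), with an edgeR adjusted p of 0.0645, so it did not pass over all genes. It passed with DESeq2 (-0.28, adjusted p = 0.0423), after correction of each library for exon length and GC content (-0.54, adjusted p = 0.0233) and without control 3 (-0.33, edgeR adjusted p = 0.0389). The main coding transcript, Ccnd2-201, held 97.5% of Ccnd2 counts in knockout, 98.5% in control and 97.9% in naive libraries. Exons of Ccnd2 share 368 bases with the antisense gene 9330179D12Rik, at 0.272, 0.332 and 0.635 CPM in knockout, control and naive libraries.

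Cyclin D3, encoded by Ccnd3 on chromosome 17, was higher in stimulated cells. Knockout libraries held 618 and 627 CPM, against 646, 661 and 705 CPM for the lowest, median and highest control and 385, 439 and 501 CPM for naive libraries. Controls lay above every naive library, and both knockout libraries lay between the 2 groups. Control over naive the log2 fold change was 0.59 (SE 0.05, edgeR adjusted p = 2.25e-08), a 1.502-fold difference. Knockout over control it was -0.10 (SE 0.05, 95% interval -0.20 to 0.01, edgeR adjusted p = 0.269), and it was 0.10 after the length and GC correction. Exons of Ccnd3 share 361 bases with Bysl on the opposite strand, at 80.9, 110 and 67.8 CPM in knockout, control and naive libraries.

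Ccnd3 has upstream and downstream starts, and the share of a downstream-start transcript differed between stimulated and naive libraries. The transcript Ccnd3-205, read from a downstream start at position 47593470 (GRCm38), has the same coding length, 876 bases, as the upstream-start transcripts Ccnd3-201, Ccnd3-202, Ccnd3-215 and Ccnd3-218. It held 7.24 and 8.74% of Ccnd3 counts in knockout libraries, against 4.15, 6.58 and 17.9% for the lowest, median and highest control and 1.297, 1.89 and 3.58% for naive libraries. Control and knockout shares all lay above the naive ones, and knockout shares lay inside the control range. A test on the log2 odds of transcript shares (limma, Benjamini-Hochberg adjusted over all transcripts), chosen after seeing the data, gave control over naive 2.02 (SE 0.31, adjusted p = 0.000168) and knockout over naive 2.13 (adjusted p = 0.0111). Knockout over control it gave 0.11 (adjusted p = 0.961). The usage test of edgeR called the gene Ccnd3 for control against naive (adjusted p = 0.0130), but not this transcript (adjusted p = 0.124). The retained-intron transcript Ccnd3-203, chosen after its values were seen, held 0.313% of counts in knockout, 0.113% in control and 2.96% in naive libraries. Ccnd3-206, another retained-intron transcript chosen so, starts near Ccnd3-205, at 47593436, and went the other way. It held 0.623% in knockout, 0.615% in control and 1.02% in naive libraries. Counts were not summed per start, so the use of each start was not tested. Counts of the upstream-start transcripts Ccnd3-202 and Ccnd3-215 were split unevenly among libraries of one group, with Ccnd3-202 at 0 to 36.4% in controls, so their single shares are not interpreted. The sequences before both starts are shown because the share of Ccnd3-205, from the downstream start, differed. They are RefSeq windows of GRCm38.p6, plus strand, 250 bases each, at chr17:47504801-47505050 and chr17:47593217-47593466, 5′ to 3′. Capitals mark the FOXO word.
Ccnd3 upstream start: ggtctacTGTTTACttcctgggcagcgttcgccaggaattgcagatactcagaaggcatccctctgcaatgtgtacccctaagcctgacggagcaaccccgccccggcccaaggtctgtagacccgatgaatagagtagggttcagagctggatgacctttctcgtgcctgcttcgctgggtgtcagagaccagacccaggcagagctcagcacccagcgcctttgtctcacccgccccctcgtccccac
Ccnd3 downstream start: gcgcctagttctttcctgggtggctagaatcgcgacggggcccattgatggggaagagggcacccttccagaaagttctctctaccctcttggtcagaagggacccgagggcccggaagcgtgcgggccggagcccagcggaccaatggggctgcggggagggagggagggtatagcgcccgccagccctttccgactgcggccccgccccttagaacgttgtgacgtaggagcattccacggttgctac

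CDK4, encoded by Cdk4 on chromosome 10, was higher after stimulation and was the member with a called difference between knockout and control libraries. Knockout libraries held 469 and 430 CPM, against 513, 543 and 625 CPM for the lowest, median and highest control and 303, 337 and 369 CPM for naive libraries. The 3 groups did not overlap, with the knockout libraries between the naive and the control group. Control over naive Cdk4 was 1.65-fold higher (log2 fold change 0.72, SE 0.05, edgeR adjusted p = 1.10e-09). Knockout over control it was 1.23-fold lower (log2 fold change -0.29, SE 0.07, 95% interval -0.44 to -0.15, edgeR adjusted p = 0.0206). That call was lost without knockout 2 (-0.22, edgeR adjusted p = 0.258) and after the length and GC correction (-0.20, edgeR adjusted p = 0.0677). Knockout over naive the log2 fold change was 0.45 (edgeR adjusted p = 0.000779). Exons of Cdk4 share 641 bases with Tspan31 on the opposite strand, at 125, 146 and 80.0 CPM in knockout, control and naive libraries.

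CDK6, from Cdk6 on chromosome 5, was also higher after stimulation. Knockout libraries held 63.3 and 81.7 CPM, against 60.3, 72.0 and 92.9 CPM for the lowest, median and highest control and 21.5, 29.1 and 36.8 CPM for naive libraries. Stimulated and naive libraries did not overlap, and the knockout libraries lay inside the control range. Control over naive Cdk6 was 2.46-fold higher (log2 fold change 1.299, SE 0.10, edgeR adjusted p = 3.71e-09). Knockout over control the log2 fold change was 0.01 with a 95% interval from -0.28 to 0.29 (edgeR adjusted p = 0.986), and the value was -0.37 after the length and GC correction. The coding transcript Cdk6-201 held 2.22 ± 0.00848% of Cdk6 counts in knockout, 3.37 ± 1.46% in control and 7.99 ± 4.54% in naive libraries. Control over naive its share odds differed by -1.24 (SE 0.37, limma adjusted p = 0.0197). edgeR's usage test did not call it (adjusted p = 0.285), and in the odds test the gene's adjusted p, 0.0331, became 0.0672 without control 1.

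The Cdk4 counts were split between a coding transcript and one that keeps an intron, and this split differed between control and naive libraries. Cdk4-201 (8 exons, 909 coding bases) runs from 127063534 to 127067920 on the plus strand of chromosome 10 in GRCm38. Cdk4-207, annotated as a retained-intron transcript, keeps the fifth of the 7 introns of Cdk4-201, chr10:127065265-127065952, 688 bases between coding exons with a GC content of 45.9%, and it also ends earlier, at 127067297. Read on from the coding frame, the intron brings an in-frame TAG stop at its base 41, after 224 codons of the 303 of full-length CDK4. The parts of the intron, of the earlier end and of the overlap with Tspan31 given above in this split were not tested. The intron ends are shown because Cdk4-207 keeps this intron, from GENCODE M21 transcript sequence of GRCm38, plus strand, 5′ to 3′, chr10:127065250-127065279 and chr10:127065930-127065967. Capitals mark the first 6 and the last 2 bases of the intron.
Cdk4 intron 5 donor: gatgttccgtcggaaGTATGGgactagaaa
Cdk4 intron 5 acceptor: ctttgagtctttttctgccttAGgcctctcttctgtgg

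Cdk4-207 held 51.8 and 19.7% of Cdk4 counts in knockout libraries, against 3.08, 3.99 and 18.3% for the lowest, median and highest control and 13.4, 51.9 and 62.0% for naive libraries. Both knockout libraries lay above all controls, though knockout 2 only just above control 1, and the control and naive ranges overlapped through naive 2 at 13.4%. These shares rest on 18931 and 7696 counts in the knockout libraries, so the counting error is small beside the spread between libraries. Knockout 1, the higher of the pair, is also the library with 1.80% of counts on mitochondrial genes, and the part of this in its share was not tested. The coding transcript Cdk4-201 stood at 211 and 329 CPM in knockout libraries, 445 to 529 CPM in controls and 115 to 306 CPM in naive libraries, so each knockout library held less of it than any control. Control over naive, edgeR's usage test called Cdk4 (Simes adjusted p = 3.06e-09, with 8.75% of 8581 genes called) and Cdk4-207 had a relative log2 fold change of -2.46 (adjusted p = 2.02e-09). The limma test on share odds gave -3.58 (SE 0.56, adjusted p = 0.000232) for Cdk4-207 and an adjusted p of 0.000323 for the gene, with 48% of genes called. In this comparison edgeR's usage test called 2 of 7 members, Cdk4 and Ccnd3, and the odds test 5 of 7, these and Ccnd2, Cdk6 and Cdkn2c. On data simulated for control against naive, 37 of 89 calls of edgeR's usage test were false, and 5 of 119 calls of the odds test. In these simulations each transcript was drawn by itself, with a 4-fold change in some, so transcripts of 1 gene were not linked. The false calls there therefore need not equal those in the real data. Retained-intron transcripts as a class were lower in controls for 46.1% of 9399 tested by share odds, against 19.4% of all transcripts, and for 4.46% in edgeR's usage test. Over all genes they took 3.66 ± 0.00783% of counts in knockout, 3.56 ± 0.230% in control and 5.58 ± 0.328% in naive libraries (SD, n = 2, 8 and 8).

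Between knockout and control libraries the evidence for the Cdk4 split depended on the test. edgeR's usage test called Cdk4 as 1 of 7 members tested (adjusted p = 0.00865, where 1.7% of 9653 genes were called), with a relative log2 fold change of 2.16 for Cdk4-207 (adjusted p = 0.00533). Without knockout 1 the value was 1.26 and the adjusted p was 1. The limma test on share odds gave 2.95 (SE 0.90) for Cdk4-207 with an adjusted p of 0.277, and 0 of 7 members were called where 1.61% of genes were. At an unadjusted p under 0.05 that test held 6 member transcripts, from Cdk4, Cdkn1b, Ccnd2 and Ccnd3. These are not separate, since Cdkn1b-201 and Cdkn1b-202 mirror each other (-1.71 and 1.71), and Cdk4-201 and Cdk4-207 went opposite ways (-2.69 and 2.95). The share of all transcripts under that threshold is not given here, so the count is not read as a result about the members. On simulated data with 2 libraries in a group the edgeR usage test made mostly false calls and the odds test made none, right or wrong. In the real data the odds test called 155 genes here and 2141 in knockout against naive, so the simulation did not match these data. It cannot say which test to follow, and this difference is not settled. Knockout over naive, 0 of 7 members passed edgeR's usage test (3.42% of genes did). Ccnd2 and Ccnd3 lay under an unadjusted p of 0.05 in that test, as did 1362 of all 10127 genes. Ccnd3 lay near the threshold (edgeR adjusted p = 0.0534) and passed without naive 4 (0.0473) and with a minimum mean count of 10 (0.0474). The voom usage test called Ccnd3, Cdk6, Cdkn1b and Cdkn2c, among 2069 genes called, but on simulated data 118 of its 156 calls in this comparison were false. By share odds 5 of 7 passed (21.1% of genes did), Ccnd2, Ccnd3, Cdk4, Cdkn1b and Cdkn2c. Without knockout 1 the odds test did not call Ccnd2 (0.187), Cdkn1b (0.0955) or Cdkn2c (0.0764). Cdk4-207 itself gave -0.63 there (limma adjusted p = 0.727), and Cdk4, with a limma adjusted p of 0.0451 for the gene, was not called without knockout 2 (0.246).

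**Figure D3:**
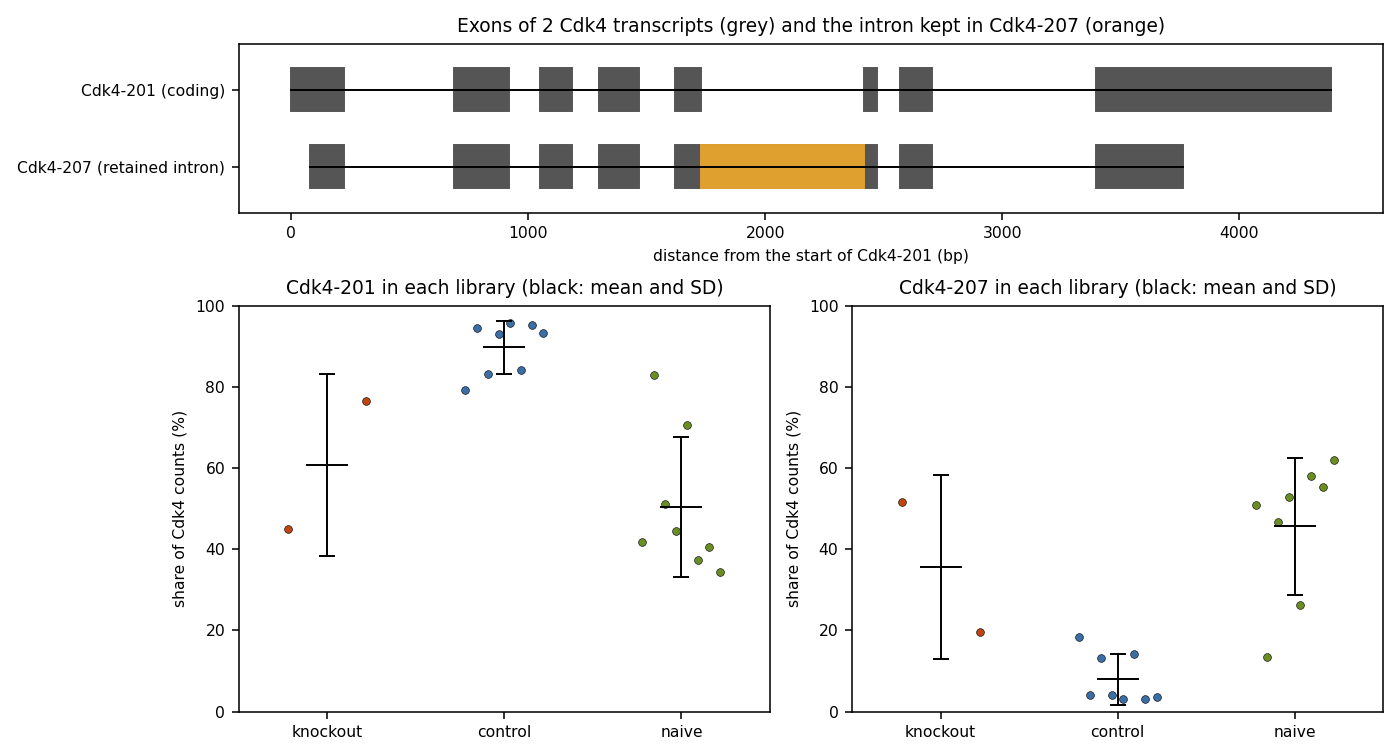
Top, exons of Cdk4-201 and Cdk4-207 as boxes by distance in bp from the start of Cdk4-201, with the retained intron coloured; bottom, the share of Cdk4 counts (%) on each transcript in each library, with mean and SD in black. Cdk4-207 lies at 51.8 and 19.7% in the knockout libraries, at up to 18.3% in controls and at up to 62.0% in naive libraries.

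The promoter window of Cdk4 is shown because Cdk4 was called in all 3 comparisons of gene level. E-boxes (CACGTG, a palindrome, so both strands read alike) are bound by MYC and related factors. The window is the RefSeq sequence of GRCm38.p6, plus strand, 5′ to 3′, chr10:127063285-127063534, with E-boxes in capitals.
Cdk4 promoter: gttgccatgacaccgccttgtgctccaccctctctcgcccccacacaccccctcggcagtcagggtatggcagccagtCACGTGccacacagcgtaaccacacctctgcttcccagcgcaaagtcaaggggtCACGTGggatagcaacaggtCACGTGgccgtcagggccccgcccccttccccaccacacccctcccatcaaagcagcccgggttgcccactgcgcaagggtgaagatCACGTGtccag
The 4 E-boxes start at -172, -118, -98 and -11, counted from the RefSeq start with -1 as the base before it. RefSeq windows of 300 bases were at hand for 7 of the 10 members (10 windows, from 250 bases before to 50 after a start). Of all 32851 mouse windows 7.15% held an E-box and 8 windows, 0.0244%, held 4 or more. Cdk6 had 1, at -220, and the downstream start of Cdkn2c had 1, at 35. The E2F words TTTCCCGC, TTTCGCGC, TTTGCCGC and TTTGGCGC, searched on both strands, were in 2.26% of all windows and among the members in 1 of the 2 Cdkn2a windows. The FOXO word TGTTTAC, on both strands, was in 3.65% of all windows and among the members at the upstream start of Ccnd3, at -243. A match describes letters in a window only.

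p27Kip1, the product of Cdkn1b on chromosome 6, was lower at the RNA level in stimulated cells. Cdkn1b stood at 7.997 and 8.34 CPM in knockout libraries, against 6.996, 8.07 and 8.59 CPM for the lowest, median and highest control and 12.1, 14.4 and 16.5 CPM for naive libraries. No stimulated library reached the naive range, and the knockout libraries lay inside the control range. Control over naive Cdkn1b was 1.81-fold lower (log2 fold change -0.86, SE 0.07, edgeR adjusted p = 9.99e-09). Knockout over control the log2 fold change was 0.05 with a 95% interval from -0.19 to 0.29 (edgeR adjusted p = 0.831). Its transcripts Cdkn1b-201 and Cdkn1b-202 have the same 591 coding bases, and Cdkn1b-202 keeps an intron of 2159 bases that lies after the coding end, chr6:134922084-134924242 in GRCm38. Cdkn1b-202 held 77.0 and 70.8% of Cdkn1b counts in knockout libraries, against 38.7, 42.3 and 63.0% for the lowest, median and highest control and 43.4, 48.9 and 59.1% for naive libraries. Both knockout libraries lay above all other libraries, and the control and naive ranges overlapped. By share odds the difference of knockout over control was 1.71 (SE 0.44), with an unadjusted limma p of 0.00328 and an adjusted p of 0.186, and edgeR's usage test gave an adjusted p of 1. The voom usage test called Cdkn1b (adjusted p = 0.00877), among 888 genes called, but on simulated data 95 of its 138 calls in this comparison were false. Without control 2 the odds test called the gene (adjusted p = 0.0461). Knockout over naive the odds difference was 1.48 (limma adjusted p = 0.0192), and the gene's adjusted p of 0.0115 became 0.0955 without knockout 1.

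p18INK4c, from Cdkn2c on chromosome 4, was modestly higher in stimulated cells. Cdkn2c stood at 36.5 and 37.0 CPM in knockout libraries, against 25.8, 37.1 and 38.3 CPM for the lowest, median and highest control and 16.6, 24.8 and 30.7 CPM for naive libraries. The groups overlapped through control 3, at 25.8 CPM. Control over naive the log2 fold change was 0.51 (SE 0.12, edgeR adjusted p = 0.00127), and knockout over control it was 0.06 with a 95% interval from -0.21 to 0.32 (edgeR adjusted p = 0.832). Cdkn2c has 2 annotated starts whose transcripts share 504 coding bases. Cdkn2c-201, from the downstream start at position 109665372 on the minus strand, held 4.23 and 4.42% of the gene's counts in knockout libraries, against 2.89, 4.02 and 6.16% for the lowest, median and highest control and 7.46, 14.1 and 22.3% for naive libraries. Stimulated libraries, knockout and control, all lay below the naive ones, of which naive 2 was the lowest. Control over naive the share odds differed by -1.92 (SE 0.25, limma adjusted p = 4.97e-05) and knockout over naive by -1.85 (limma adjusted p = 0.0222). edgeR's usage test did not pass for the gene in either comparison, with adjusted p of 0.0683 for control and 0.858 for knockout against naive. Without knockout 1 the odds test did not call Cdkn2c in knockout against naive (adjusted p = 0.0764).

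p19INK4d, from Cdkn2d on chromosome 9, was the inhibitor gene with the highest level per transcript length and did not pass edgeR's test of gene level in any of the 3 comparisons. Cdkn2d stood at 137 and 127 CPM in knockout libraries, against 132, 143 and 168 CPM for the lowest, median and highest control and 128, 146 and 160 CPM for naive libraries. The 3 ranges overlapped. Control over naive the log2 fold change was -0.01 with a 95% interval from -0.11 to 0.10 (edgeR adjusted p = 0.900), and knockout over control -0.14 with an interval from -0.32 to 0.05 (edgeR adjusted p = 0.378). After the length and GC correction the control over naive value was -0.13 (edgeR adjusted p = 0.0497). Most counts lay on Cdkn2d-201, which holds an extra exon of 52 bases, chr9:21290425-21290476, that Cdkn2d-203 lacks. This exon ends the reading frame after 50 codons, against 166 codons in Cdkn2d-203. The first 30 bases of the exon, chr9:21290447-21290476 on the minus strand of GRCm38, are shown because they carry that stop codon, in capitals.
Cdkn2d-201 extra exon: gtgccctctTGAaggatctctggttatttc
Cdkn2d-201 held 70.2 and 70.2% of Cdkn2d counts in knockout libraries, against 58.6, 66.9 and 71.8% for the lowest, median and highest control and 67.1, 70.9 and 75.3% for naive libraries. The ranges overlapped, and no test of these shares passed, with a limma adjusted p of 0.112 for control against naive.

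Cdkn2a, on chromosome 4, encodes p16INK4a and, from another first exon and reading frame, p19ARF. It was near the limit of detection, at 0.257 and 0.132 CPM in knockout libraries (20 and 12 counts) and at 0.0671 to 0.416 CPM in controls (5 to 32 counts). Of the naive libraries 5 held no count, which allows up to 3 counts each, and the others held 3, 20 and 23 counts, the highest at 0.300 CPM. Control against naive was not tested because the gene did not pass the low-count filter. Knockout over control the log2 fold change was -0.13 with a 95% interval from -1.63 to 1.37, so a difference was not detectable at this depth. The ARF-type transcript Cdkn2a-202 held 100 and 91.7% of the counts in the knockout libraries and the median control had 100%, while in control 5 all 12 counts lay on Cdkn2a-201, the p16INK4a type.

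**Figure D4:**
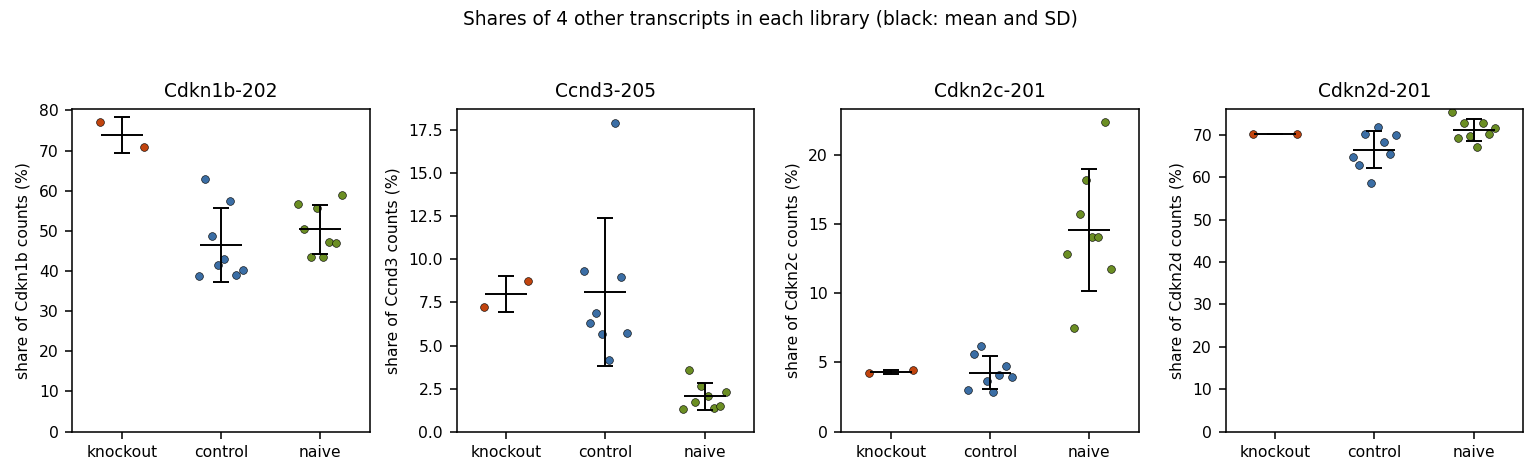
Share of the gene's counts (%) on Cdkn1b-202, Ccnd3-205, Cdkn2c-201 and Cdkn2d-201 in each library of the knockout, control and naive groups, with mean and SD in black; axes start at 0. Cdkn1b-202 is at 77.0 and 70.8% in knockout libraries and at most 63.0% elsewhere, Ccnd3-205 is lowest and Cdkn2c-201 highest in naive libraries, and Cdkn2d-201 overlaps in all groups.

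Rb1, on chromosome 14, encodes the main substrate of these kinases in the pathway and was slightly higher in stimulated cells. It stood at 10.8 and 10.9 CPM in knockout libraries, against 7.37, 8.59 and 11.2 CPM for the lowest, median and highest control and 4.74, 6.22 and 9.97 CPM for naive libraries. Control and naive ranges overlapped through naive 2 alone, at 9.97 CPM. Control over naive the log2 fold change was 0.43 (SE 0.14, edgeR adjusted p = 0.00993) and knockout over control it was 0.31 (SE 0.15, 95% interval 0.02 to 0.60, edgeR adjusted p = 0.192). The unadjusted edgeR p of the latter was 0.0608. Its interval leaves out 0 because it was taken from a normal spread, which is narrower than edgeR's test implies. Exons of Rb1 overlap exons of Rcbtb2 (488 bases) and Lpar6 (408 bases) on the opposite strand. Rcbtb2 stood at 51.9, 47.0 and 83.5 CPM and Lpar6 at 13.2, 15.4 and 78.4 CPM in knockout, control and naive libraries. How many Rb1 counts came from these genes was not tested. Rb1-201 held at least 97.5% of Rb1 counts in every library.

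Set against naive cells directly, knockout libraries gave log2 fold changes of -3.33 for Ccnd1 (edgeR adjusted p = 0.00182), -1.71 for Ccnd2 (3.37e-05), 0.52 for Ccnd3 (0.000792), 1.33 for Cdk6 (1.88e-05) and -0.78 for Cdkn1b (0.000557). Each of these has the sign it has in control over naive. Cdkn2c gave 0.60 (edgeR adjusted p = 0.0259) and Rb1 0.76 (edgeR adjusted p = 0.0140). Neither of the last was called without knockout 1 (adjusted p = 0.124 and 0.0844) or without knockout 2 (0.111 and 0.0745), and Cdkn2c was also lost without naive 6 (0.0525) or naive 7 (0.0547). Ccnd1 was not called with limma voom (adjusted p = 0.0730), Cdkn2c not with total counts (0.0714) and Rb1 not after the length and GC correction (0.0641). Cdkn2d and Cdkn2a did not pass, with edgeR adjusted p of 0.304 and 0.518. Cdkn2d passed with total counts (-0.23, edgeR adjusted p = 0.0387) and Cdkn2a with limma voom (adjusted p = 0.0218).

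The genes these kinases act on through RB1 were higher after stimulation as a group. Of 15 S phase genes known as E2F targets, 15 were higher in control than in naive libraries, with a median log2 fold change of 1.36. Mcm2, a subunit of the replicative helicase, averaged 766 ± 37.2 CPM in control and 346 ± 50.9 CPM in naive libraries (SD, n = 8 each; log2 fold change 1.15, edgeR adjusted p = 6.07e-10). Of the RB family, E2F factors and partners, 9 of 12 were higher and 1 was lower. The repressor E2f8 averaged 95.4 ± 7.91 CPM in control and 36.2 ± 9.99 CPM in naive libraries (1.40, adjusted p = 6.47e-08), and Tfdp1, the E2F dimer partner, gave 1.09. The pocket protein gene Rbl2, whose product p130 acts with E2F4 to repress cell cycle genes in resting cells, was lower, at 89.2 ± 10.2 CPM in control and 142 ± 9.41 CPM in naive libraries (-0.67, adjusted p = 2.93e-08). Of the MuvB core and its activators 6 of 7 were higher, with Mybl2 at 1.75 and Foxm1 at 1.20, and of cyclin E, cyclin A and CDK2 genes 5 of 5, with Ccne2 at 1.66 and Ccna2 at 1.37. These counts stand against 32.5% of all genes higher and 39% lower.

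Genes that set the level of D cyclins and p27 were divided. Of 9 regulators of cyclin D transcription and turnover 5 were lower in controls than in naive libraries and 1 was higher, where 39% of all genes were lower and 32.5% higher. The forkhead factor Foxo1, known to keep T cells quiescent, averaged 21.7 ± 4.18 CPM in control and 55.0 ± 11.6 CPM in naive libraries (log2 fold change -1.34, edgeR adjusted p = 3.74e-08), and Foxo3 gave -1.56. Myc, at 114 ± 12.9 CPM in control and 162 ± 18.4 CPM in naive libraries, gave -0.51 (adjusted p = 1.01e-05), and the ubiquitin ligase subunit Fbxw8 gave 1.11. Of the 7 measured genes of p27 turnover 6 were higher, among them Skp2, the ligase subunit that recognises p27, at 40.4 ± 2.87 CPM in control and 17.8 ± 3.81 CPM in naive libraries (1.18, adjusted p = 3.43e-08). Rnf123, a subunit of another p27 ligase, was lower (-1.20). Of 11 Cdkn2a regulators and members of the ARF-MDM2-p53 axis 3 were higher and 5 lower, with the Polycomb methyltransferase gene Ezh2 at 1.07 and the Polycomb reader gene Cbx7 at -1.18. Of the CDK-activating kinase and the CDK4 chaperone Cdc37, 2 of 4 were higher (Ccnh 0.28, Cdc37 0.22). The counts of the cyclin D regulators, of the Cdkn2a regulators and of this list are not far from the shares over all genes. Of the other CDK inhibitors Cdkn2b, which encodes p15INK4b, was higher, at 0.855 ± 0.462 CPM in control and 0.385 ± 0.319 CPM in naive libraries (1.14, edgeR adjusted p = 0.0200), and this call was lost without control 8 (0.0514).

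Between knockout and control libraries, 14 of the 73 tested genes of these lists passed, 19.2% against 14.9% of all genes, so the count lies near the background. Of the 14, 12 were not called once 1 library was left out. Rbl2, the p130 gene, was higher, at 183 ± 47.2 CPM in knockout and 89.2 ± 10.2 CPM in control libraries (SD, n = 2 and 8; log2 fold change 1.04, edgeR adjusted p = 0.000621). Rrm2, the small subunit of ribonucleotide reductase and an E2F target, was lower, at 1231 ± 106 CPM in knockout and 1776 ± 76.9 CPM in control libraries (-0.52, edgeR adjusted p = 0.000640). These 2 calls held without each library in turn, though Rrm2 did not pass with all 3 groups in one fit (adjusted p = 0.130). Of the 15 E2F targets 3 were lower and none higher, Rrm2, Tk1 (-0.28) and Tyms (-0.22), with a list median of -0.06. With all 3 groups in one fit Tk1 (edgeR adjusted p = 0.381) and Tyms (0.382) did not pass either. Without knockout 2 only 1 of the 15 was lower, and without knockout 1 there were 5 lower and 1 higher. Calls over all genes were also fewest without knockout 2, as given below, so these counts are not read as a result about E2F targets. Cdkn1a, which encodes the CDK inhibitor p21, was higher, at 16.001 ± 0.318 CPM in knockout and 8.11 ± 2.45 CPM in control libraries (0.99, edgeR adjusted p = 0.0288), and Mdm2, the ligase of p53, was higher too (0.41, edgeR adjusted p = 0.00266). Cdkn1a was not called without knockout 1 (0.123) or knockout 2 (0.169), and Mdm2 not without knockout 2 (0.0586). Myc was lower, at 83.0 ± 5.14 CPM in knockout and 114 ± 12.9 CPM in control libraries (-0.45, edgeR adjusted p = 0.0239), but not called without knockout 1 (0.0562) or knockout 2 (0.236). The other calls were E2f3 (0.52), Lin54 (0.39) and Ezh2 (0.27), which were higher, and Lin37 (-0.31), the cyclin E gene Ccne2 (-0.48), Mnat1 of the CDK-activating kinase (-0.58) and the ligase scaffold gene Cul1 (-0.28), which were lower. Each of these 7 was lost without knockout 2. The length and GC correction ended 5 of the 14 calls, with E2f3 at 0.30 (edgeR adjusted p = 0.187), Lin54 at 0.17 (0.186), Lin37 at -0.087 (0.593), Tk1 at -0.12 (0.141) and Myc at -0.32 (0.0918). The fit of all 3 groups also lost Ccne2 (edgeR adjusted p = 0.120), E2f3 (0.0918) and Ezh2 (0.202). The summed erythroid and platelet genes given above were also higher in a knockout library than in any control, and Hba-a1 and Hbb-bs passed (2.92 and 3.22, edgeR adjusted p = 0.0456 and 0.0466). Their part in the gene lists was not tested.

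Against naive libraries, which the control comparison also used, knockout libraries had 15 of 15 E2F targets higher, with a median log2 fold change of 1.25. Of the RB family, E2F factors and partners 9 of 12 were higher, and 5 of 12 without knockout 2. The share of all genes called without knockout 2 is not given here, so that drop is not read as one of this list. In this list E2f3 gave 1.45 (edgeR adjusted p = 0.000181) and E2f7 1.40 (0.000390). Of the MuvB core and its activators 6 of 7 were higher, and of cyclin E, cyclin A and CDK2 genes 5 of 5. Of the cyclin D regulators 1 was higher and 4 lower, of p27 turnover genes 5 higher and 1 lower, and of the 11 Cdkn2a regulators 4 higher and 4 lower. Of all genes 21.1% were higher and 23.6% lower in this comparison, which the counts of the Cdkn2a regulators and of the cyclin D regulators are not far from. Over 8 alternatives the genes higher fell to as few as 12 E2F targets and 4 of the RB family list. They fell to as few as 3 of the MuvB list and 2 of the cyclin E, cyclin A and CDK2 list. Calls over all genes ran from 3322 to 9622 in these alternatives.

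**Figure D5:**
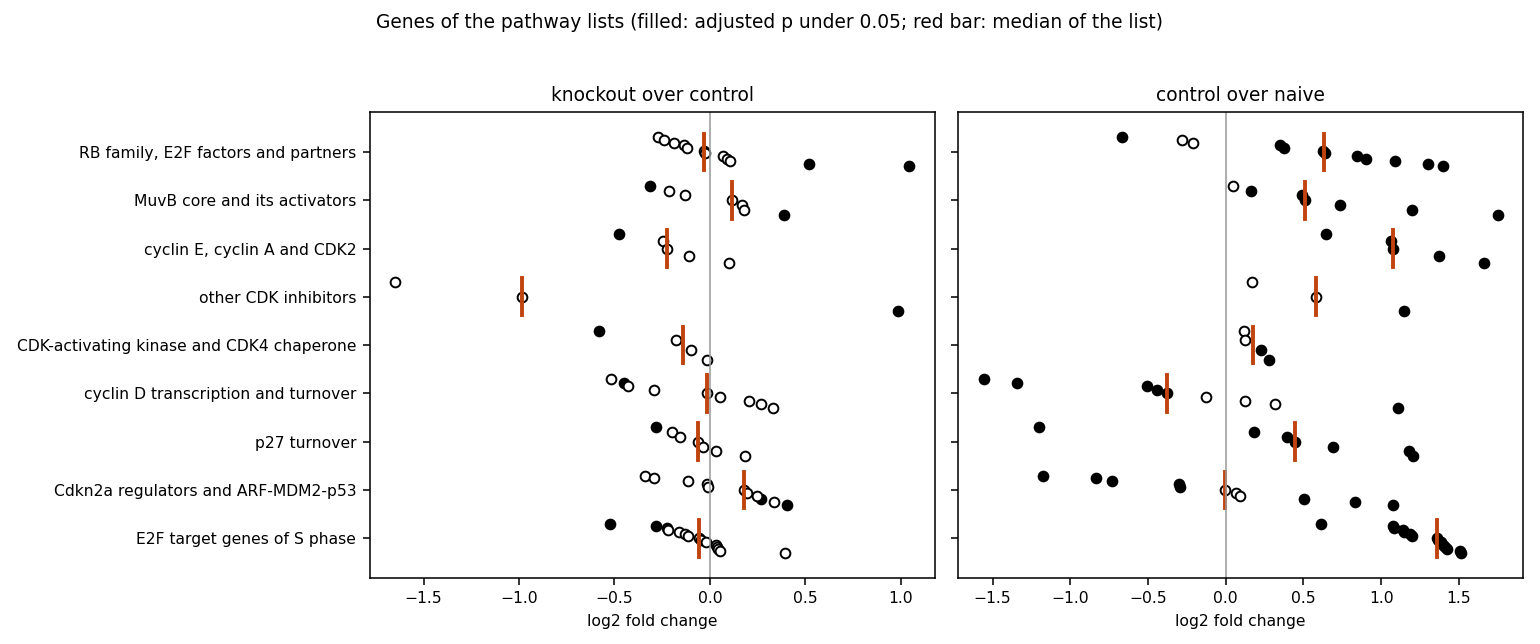
Log2 fold change of each gene of the 9 pathway lists, knockout over control on the left and control over naive on the right; filled points passed an adjusted p of 0.05 in edgeR, open points did not, and the red bar is the median of the list. On the right the 15 E2F targets all lie above 0 with a median of 1.36, and on the left their median is -0.06.

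By the distance between centred log2 CPM profiles over the 18 libraries (root mean square, over 7168 other genes averaging 4 or more in log2 CPM, 7169 for Ccnd1), Cdk4 had the closest neighbours. Exosc3 lay at 0.0427, Psmc2 at 0.0505 and Rtca at 0.0507 log2 units from Cdk4. The nearest to Ccnd3 were Polr1d at 0.0693, Polr2c at 0.0708 and Mlf2 at 0.0723, and the nearest to Ccnd2 were Pim2 at 0.106, Dennd2d at 0.132 and Rps27 at 0.135. Cdk6 lay farther from its nearest genes, Nudt1 at 0.145, Syce2 at 0.156 and Ehd4 at 0.161. Ccnd1, which rests on 8 to 443 counts in control and naive libraries, had no close neighbour, with Irf8 at 0.370, Ifi205 at 0.381 and Ppt1 at 0.398. The distance tends to grow with counting noise and with the size of a change, so it does not rank the members by likeness. Libraries of one group share treatment and day, so the 18 points are not independent conditions.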

How the data were processed

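RNA was measured as polyA-primed sequencing libraries, with the SMARTer ultra-low input kit per the labels' protocols. The authors deposited estimated counts per gene and per transcript, whole numbers in these files, and no depth scaling was applied to them. StringTie 2.1.0, STAR 2.7.1a, DESeq2 1.30.1, SAMtools 1.9 and R 4.0.5, with the builds mm10 and mm39, are named in the submitters' processing notes without roles. Identifiers matched GENCODE M21 (GRCm38). Rows that name no gene, 0.0513 to 0.132% of counts, stayed out of the tests, and 0 per-sample columns were unused. Library totals ran from 68249844 to 93972513 counts, and a count of 0 allows up to 3 counts; intervals and this floor cover counting error only.

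Counts were fitted per pair of groups with edgeR 4.0.16 (TMM, filterByExpr with a minimum count of 10, quasi-likelihood test, Benjamini-Hochberg threshold 0.05) in R 4.3.3. Transcript usage was tested with edgeR's quasi-likelihood splice test and, chosen after seeing the data, with limma 3.58.1 on log2 odds of shares (pseudocount 0.5). This second test was added because on simulated data the first made false calls. Alternatives were DESeq2 1.42.0, limma voom, RLE factors, total counts, no low-count filter, all groups in one fit, controls 3 to 8, a correction of each library for exon length and GC content (smooth trends), the replicate number as a block, and leaving out each library. Replicates were checked and none was a duplicate.

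The members and lists were chosen with earlier results of these data known. Named were all members, their transcripts with a mean share of at least 5% in a group, the 4 genes of each list with the smallest p in a comparison, and the 3 nearest genes of each cyclin and kinase.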

Additional observations from a re-analysis of the deposited data

Results flagged for a closer look

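In groups of 8 libraries, 1 library stood far from the other 7 for 9 of 56 values tested. Chance flags about 1 in 20 groups of separate, normally spread values. Shares of 1 gene are not separate, as in control 5 and naive 6 below, so these rates are not compared. Among controls, control 3 had 25.8 CPM of Cdkn2c (nearest control 33.1 CPM), control 6 had 17.9% of Ccnd3 counts on Ccnd3-205 (nearest 9.31%), control 8 had 6.35% of Cdk6 counts on Cdk6-201 (nearest 3.79%) and control 4 had 98.3% of Rb1 counts on Rb1-201 (nearest 99.3%). In control 5, Cdkn2a-201 held 100% of Cdkn2a counts (nearest 27.3%) and Cdkn2a-202 held 0% (nearest 72.7%). Among naive libraries, naive 2 had 9.97 CPM of Rb1 (nearest 7.19 CPM). In naive 6, Ccnd1-201 held 77.8% of Ccnd1 counts (nearest 95.7%) and Ccnd1-203 held 21.4% (nearest 3.76%).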

How the results depend on the processing

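In control over naive the 8 member calls held without each library and under each alternative. Cdkn2d, not called, changed sign to 0.036 with controls 3 to 8, 0.0094 with DESeq2, 0.017 with voom, 0.042 with no low-count filter and 0.0094 with RLE factors, and it ran from -0.017 to 0.035 without 1 library. Knockout over control, voom gave 0.020 for Ccnd1 and 0.018 for Cdkn2a, and the length and GC correction gave 0.10 for Ccnd3, -0.37 for Cdk6, -0.034 for Cdkn1b, 0.18 for Cdkn2a and 0.040 for Cdkn2d. Without 1 library Ccnd1 ran from -0.34 to 0.14, Cdk6 from -0.18 to 0.17, Cdkn2a from -0.70 to 0.28 and Cdkn2c from -0.000154 to 0.075. Members called there were 2 with DESeq2 and 0 to 2 without 1 library, and genes called ran from 651, without knockout 2, to 2858. Knockout over naive, Cdk4-207 ran from -1.21 to 0.19 in edgeR's usage test without 1 library. Genes called for usage in control against naive, 751 in edgeR's test, were 3645 with voom and 4117 by share odds. They were 888 with voom in knockout against control, and 2069 with voom and 2141 by share odds in knockout against naive. With total counts only, the knockout mean was 609.955 CPM for Ccnd3, 36.0 CPM for Cdkn2c and 10.6 CPM for Rb1. The cause of these differences was not tested.

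Groups share replicate numbers, but same-numbered libraries correlated at -0.165 to 0.275 in control against naive, where 1 of 8 pairs was best with its own number, and at 0.141 and 0.186 in knockout against control, so the numbers were not taken as pairs. With the replicate block, knockout against control gave 0 genes and 0 members called, and 99 genes called for usage (0 by share odds). Ccnd1 was then 0.17, Cdk6 -0.21 and Cdkn2a 0.35. Knockout against naive gave 3322 genes and 4 members called, 191 genes called for usage (0 by share odds), and Cdk4-207 at 0.29 (0.36 by share odds). Control against naive gave 3479 genes by share odds with the block. With 2 knockout libraries, small differences between knockout and control were not detectable for low members such as Ccnd1 and Cdkn2a.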

Other observations

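Naive 2 lay nearest to the control libraries for several members, though not for all. It had the lowest naive Ccnd2 (389 CPM) and the highest naive Ccnd3 (501 CPM), Cdk4 (369 CPM), Cdk6 (36.8 CPM) and Rb1 (9.97 CPM). Its share of Cdk4-207, 13.4%, and of Cdkn2c-201, 7.46%, were the lowest of the naive group. Other naive libraries lay nearest to controls for Ccnd1 (naive 5, 0.939 CPM) and Cdkn1b (naive 4, 12.1 CPM). For Cdkn2c naive 4, at 30.7 CPM, lay slightly nearer than naive 2, at 30.4 CPM. Without naive 2 the difference of control over naive in the share odds of Cdk4-207 was -3.91, against -3.58 with it.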
